A study of Drosophila melanogaster with 72 samples.

Results

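The nuclear genes for mitochondrial ribosomal proteins were taken as all rows of the count table with a FlyBase symbol that starts with mRpL or mRpS and a digit. This gave 72 of 17324 features, of which 47 carry the name of a large subunit protein and 25 that of a small subunit protein. Matched by gene identifier to the Ensembl annotation of BDGP6.54, 21 members lie on 3R, 16 on 3L, 12 on 2L, 12 on 2R and 11 on the X. Of the 72, 71 had counts in each of the 72 libraries and passed the filter on low counts. The other, mRpL53, had 0 counts throughout, and in that annotation 100% of its exonic bases lie within CG33155 on the same strand, so that no statement about it can be made. Proteins of this ribosome that have other symbols, such as tko and bonsai, are not members and are given separately.

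Mitochondria have their own ribosome, which translates the few mRNAs of the mitochondrial genome into core subunits of the respiratory chain and of the ATP synthase. Its RNAs, mt:lrRNA and mt:srRNA, are encoded in the mitochondrial genome, whereas all of its proteins are encoded in the nucleus, made on cytosolic ribosomes and imported. The particle therefore joins products of both genomes, and reduced function of single proteins, such as tko in flies, slows development.

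The libraries came from whole Drosophila melanogaster males of 3 to 5 days, raised at 25 °C, in pools of 10. Sons carried a mitochondrial haplogroup of the Beijing lines B38 or B39, the Ithaca line I02 or the Netherlands lines N01, N02 or N23, combined with a Y haplotype of Beijing (B04 or B11), the Netherlands (N03 or N07) or Zimbabwe (ZH23 or ZW139). All were Global Diversity Lines, and per the labels the males were otherwise isogenic. Females of mitochondrial replacement lines had been crossed to males of Y replacement lines, and each of the 36 combinations was sampled by 2 libraries from separate crosses, so that each haplotype was present in 12 libraries. Sons have their only X from the mother, as they have their mitochondria, so a haplogroup effect on an X-linked member and an effect of a residual difference in the maternal X cannot be told apart. Batch 2 held 18 libraries, namely replicate 2 of every combination with N01, N02 or N23. Within these haplogroups batch and replicate number cannot be told apart, and no library of B38, B39 or I02 was in batch 2.

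Counts in genes numbered 2454024 to 7671784 per library with a median of 4792638, and the members received 5314 to 18875 of them. Their share of all counts was lowest in replicate 1 of B39 with Y ZW139, at 0.181% (95% Wilson interval 0.178 to 0.185%), and highest in replicate 1 of N23 with Y B04, at 0.281% (0.277 to 0.285%). These intervals cover counting error only. In 6 libraries over 20% of reads were multi-mapped, meaning that they fitted more than 1 position in the genome, and the median over all libraries was 12.3%. They were the first replicates of B38 with Y B04, B11, N03 and N07, of I02 with Y N03 and of N23 with Y B04. These 6 were 8.33% of the libraries, yet 38 of the 71 members had their lowest level and 38 their highest level in one of them. This was 53.5% of the members at either end, against 28.1% of all 12470 genes tested for the lowest and 35.1% for the highest library.

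In those libraries members lay on both sides of the rest, as did genes in general. On the log2 scale 18 members were over 0.5 higher and 17 over 0.5 lower in the mean of the 6 libraries than in the mean of the other 66, and the median difference was 0.06 for the members and 0.01 for all genes. The 18 were 25.4% and the 17 were 23.9% of the members, near the 19.6% of all genes that were as much higher and the 20.4% as much lower. mRpL43, a large subunit protein with no bacterial counterpart, averaged 15.7 ± 10.9 CPM (counts scaled to a common library size) in the 6 libraries and 44.9 ± 8.79 CPM in the other 66 (SD). mRpL3, which lies close to the peptidyl transferase centre, averaged 7.21 ± 4.16 CPM in the 6 and 19.6 ± 5.44 CPM in the 66. In the other direction, mRpL32 averaged 36.2 ± 14.5 CPM in the 6 and 14.3 ± 6.10 CPM in the 66, and mRpL52 averaged 64.4 ± 12.6 CPM in the 6 and 30.6 ± 9.65 CPM in the 66. mRpL28, a protein of the large subunit with a bacterial counterpart, reached 345.8 CPM in replicate 1 of I02 with Y N03, against 58.7 CPM in replicate 2 of that combination and a median of 61.1 CPM over all libraries. mRpL43, mRpL3, mRpL32 and mRpL52 were chosen for this description after their values were seen. Counts of calls and list medians are given below also without these 6 libraries where that changes them.

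Each read of the 3′ end method stands for one transcript end, so levels can be compared between members without a correction for length. The median member had a mean of 27.3 CPM, against 14.8 CPM for the median of all genes tested, and 64 of the 71 members lay above that median gene. Means of 65 members fell between 10 and 60 CPM. The median was 25.5 CPM among the 46 tested large subunit members and 27.4 CPM among the 25 small subunit members.

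The highest member was mRpS9, a small subunit protein with a bacterial counterpart, at 122 ± 27.8 CPM (SD, n = 72 here and for the other means over all libraries). It was followed by mRpS7, which belongs to the head of the small subunit, at 94.99 ± 24.4 CPM, and by mRpL38, a protein particular to mitochondrial ribosomes, at 81.5 ± 23.8 CPM. mRpL28 and mRpL33 followed at 65.5 ± 34.3 CPM and 64.9 ± 11.7 CPM, and the SD of mRpL28 contains the single library at 345.8 CPM. These 5 held 18.6% of the CPM of all members, and neighbours among them differed by less than the larger of their SDs. At the low end were mRpL36 at 13.3 ± 4.19 CPM, mRpL50 at 13.2 ± 4.09 CPM, mRpL35 at 13.0 ± 2.33 CPM, mRpL37 at 11.9 ± 2.64 CPM and mRpL39 at 6.35 ± 1.94 CPM, which lay below mRpL37 by more than either SD. The lowest count of mRpL39 in a library was 9, and that of mRpL55 was 7, so that their levels in single libraries are imprecise. The mRpS18 paralogs, which descend from 1 bacterial protein, had means of 32.4 ± 6.45 CPM for mRpS18A, 24.6 ± 4.81 CPM for mRpS18B and 22.3 ± 4.75 CPM for mRpS18C. In mammals the counterparts of mRpS18A and mRpS30 sit in the large subunit in spite of their names.

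**Figure D1:**
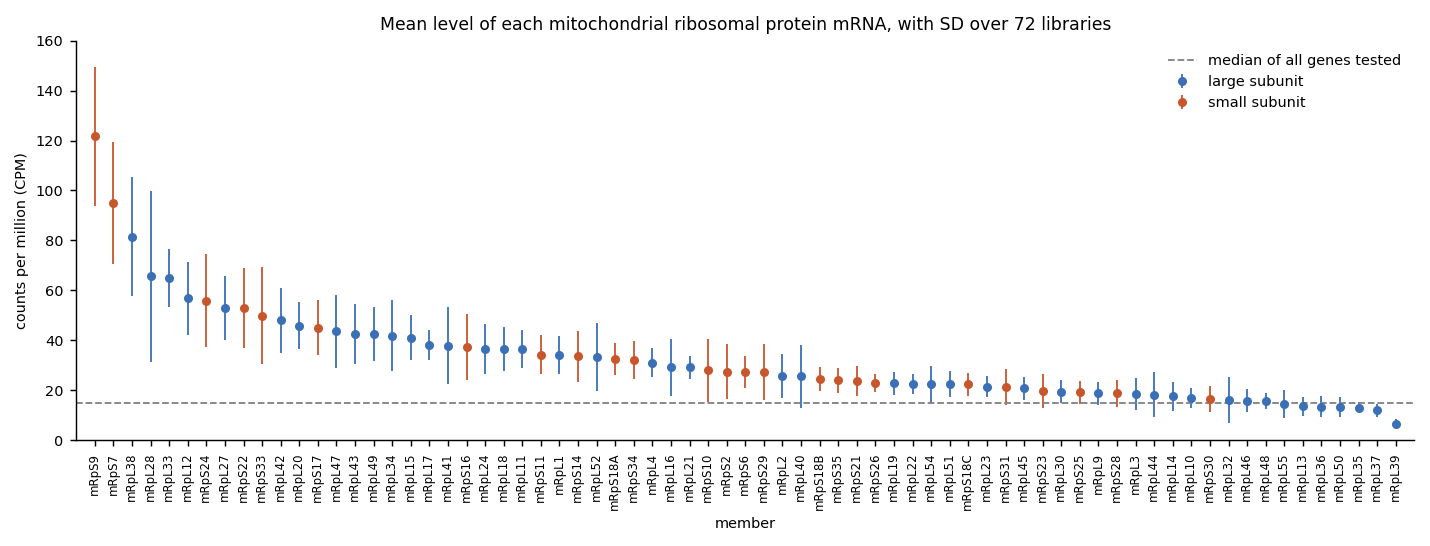
Mean level of the 71 tested members in CPM (vertical axis) with the SD over 72 libraries as bars, ordered from highest to lowest, large subunit members in blue and small subunit members in orange, with the median of all genes tested as a dashed line. Means run from 122 CPM for mRpS9 to 6.35 CPM for mRpL39, and 64 members lie above the dashed line at 14.8 CPM.

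The members varied about as much between libraries as other genes of their level. Their coefficient of variation over the 72 libraries had a median of 25.8%, from 15.3% for mRpL21 to 57.4% for mRpL32, against a median of 27.6% for the 7441 genes in the same range of mean CPM. The SD of log2 CPM that remained within combinations after batch had a median of 0.36 for the members and 0.37 for those genes. The variance of log2 CPM was divided in the order batch, haplogroup, Y, interaction and residual, and the median over members was taken for each share separately. The medians were 9.76% for batch, 5.21% for the haplogroup, 9.05% for the Y, 26.3% for the interaction and 46.0% for the residual. For all genes they were 6.13% for batch, 7.38% for the haplogroup, 8.99% for the Y, 25.2% for the interaction and 45.0% for the residual. Such medians need not add up to the whole. Batch was entered first and batch 2 held only N haplogroups. The batch share can therefore hold part of a difference between N and other haplogroups, which lowers the haplogroup share. By degrees of freedom alone, 1.41% would fall to batch, 7.04% to the haplogroup, 7.04% to the Y, 35.2% to the interaction and 49.3% to the residual. The largest haplogroup share of a member was 26.9% for mRpL23, the largest Y share 19.4% for mRpS35 and the largest batch share 34.5% for mRpS2.

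Across libraries the members tended to be high or low together. In each library the number of members above their own median over all libraries was counted. It was 7 in the lowest library and 66 in the highest, and at least 60 in 6 libraries and at most 11 in 5 libraries. Among all genes the share above their own median stayed between 45.1% and 54.2% in every library. Scaling to a common library size keeps that share near the middle, and no other list of genes was counted in this way. In replicate 1 of N02 with Y ZH23, all 25 small subunit members and 41 of the 46 large subunit members were above their median. In replicate 1 of N23 with Y ZW139, 0 of the 25 small subunit members and 7 of the 46 large subunit members were.

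The libraries of 1 combination often differed in this shared level. In the 18 combinations with both libraries in batch 1, the 2 libraries differed by 1 to 40 members above their median, with a median difference of 16.5 members, and in 5 of the 18 they lay on opposite sides of the middle of the list. In the combination with the largest difference, 40 more members were above their median in replicate 2 of B39 with Y N07, which had 50, than in replicate 1, which had 10. The summed CPM of the members ran from 1750 CPM in replicate 1 of B39 with Y ZW139 to 3678 CPM in replicate 1 of N23 with Y B04, the second of which is among the 6 libraries described above. In whole males, fewer cells of a type and less of an RNA per cell cannot be told apart.

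**Figure D2:**
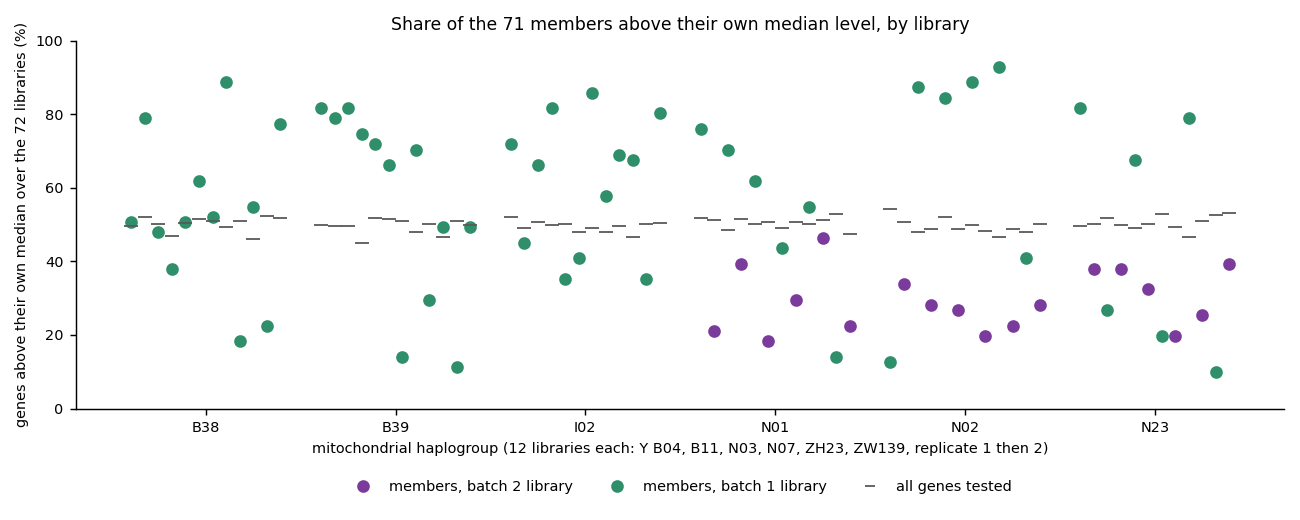
Percentage of the 71 members (circles) and of all genes tested (dashes) above their own median level over the 72 libraries, for each library, grouped by haplogroup and within it in the order of the Y haplotypes, with batch 2 libraries in purple and batch 1 libraries in green. Members spread from 9.86% to 93.0% of the list while all genes stay near the middle, and the 18 batch 2 libraries all lie below 50%.

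Other gene groups are compared here only in these 2 libraries, which were taken because they had the highest and the lowest count of members above their median. In replicate 1 of N02 with Y ZH23, where 66 members were above their median, the 2 mitochondrial rRNAs summed to 745 CPM. In replicate 1 of N23 with Y ZW139, where 7 members were, the rRNAs summed to 8146 CPM. The 69 cytosolic ribosomal protein genes summed to 139120 CPM in the first of these libraries and to 89359 CPM in the second, and nuclear genes of oxidative phosphorylation to 47414 CPM in the first and 35095 CPM in the second. The other libraries are not described for these groups, so no relation across libraries can be read from these values. The part of these groups in the members' shared level was not tested.

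The first comparison asked whether members differed between the 6 mitochondrial haplogroups, averaged over the Y. In the F test of edgeR's quasi-likelihood fit, 0 of the 71 members had an adjusted p under 0.05, while 2.01% of all genes tested did. At an unadjusted p under 0.05 there were 4 members, or 5.63%, against 15.8% of all genes. By adjusted p limma-voom called 0 members (1.4% of all genes) and DESeq2 called 1 (5.23% of all genes). With a term for the replicate number, edgeR called 6 members (8.45%), against 12.9% of all genes. The smallest p belonged to mRpL23, a large subunit protein at the exit of the peptide tunnel, at an adjusted p of 0.0915 by edgeR. mRpL23 averaged 18.2 ± 2.80 CPM in B38, 21.99 ± 3.26 CPM in B39, 21.7 ± 5.09 CPM in I02, 19.6 ± 2.07 CPM in N01, 22.7 ± 3.07 CPM in N02 and 24.3 ± 4.70 CPM in N23 (SD, n = 12 each). B38 had the lowest mean and N23 the highest, and all neighbours in this order differed by less than the larger of their SDs. The next smallest p-values were those of mRpL30, mRpS31, mRpL45, mRpL19 and mRpS25, with edgeR adjusted p from 0.208 to 0.361.

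Summed over the 71 members, the haplogroups were ordered I02 at 2502 ± 379 CPM, B39 at 2358 ± 409 CPM, B38 at 2347 ± 329 CPM, N02 at 2277 ± 372 CPM, N23 at 2213 ± 499 CPM and N01 at 2141 ± 199 CPM (SD, n = 12 each). No neighbours in this order differed by as much as their SD, and the 3 N haplogroups, which come last, are those with batch 2 libraries. In the fit with batch as a term, the members' median log2 fold change against the mean of the other 5 haplogroups lay between -0.05 for N01 and 0.05 for I02.

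In the edgeR fit of combinations plus batch, haplogroup B38 was the one haplotype of either kind in which single members passed the test. Against the mean of the other 5 haplogroups, 4 of 71 members (5.63%) were called and all 4 were lower, beside 9.71% of all genes called, 2.89% lower and 6.82% higher. The share of members called was thus below that of all genes. Past an unadjusted p of 0.05, 2 members were higher (2.82%) and 10 lower (14.1%), against 16.1% of all genes higher and 9.36% lower. The median of all 71 was -0.03 on the log2 scale against 0.01 for all genes. With a term for the replicate number, 17 members (23.9%) were called, against 26% of all genes.

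The X-linked mRpL30, a large subunit protein, ranged from 8.68 to 19.5 CPM with a median of 16.2 CPM in the 12 B38 libraries, and from 12.7 to 34.6 CPM with a median of 19.3 CPM in the 60 others. Of the B38 libraries 11 lay below the median of the others, although the groups overlapped. The lowest library was replicate 1 of B38 with Y B04, which had over 20% multi-mapped reads. The log2 fold change of mRpL30 was -0.42 ± 0.12 (SE) with an edgeR adjusted p of 0.0172, and it was negative within each of the 6 Y haplotypes. It was -0.55 with B04, -0.82 with B11, -0.43 with N03 and -0.29 with N07, where replicate 1 of B38 had over 20% multi-mapped reads. With ZH23 and ZW139, where neither B38 library did, it was -0.30 and -0.15.

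mRpS31, a small subunit protein on 3L, ranged from 3.77 to 23.2 CPM with a median of 18.8 CPM in B38 and from 10.4 to 68.1 CPM with a median of 21.5 CPM in the others. The 4 lowest B38 libraries, at 3.77, 8.75, 8.93 and 12.4 CPM, were those with over 20% multi-mapped reads. Its log2 fold change was -0.51 ± 0.15 with an edgeR adjusted p of 0.0232, and it was negative within 5 of the 6 Y haplotypes and 0.12 with ZH23.

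mRpL45, a large subunit protein on 3R, ranged from 6.41 to 25.0 CPM with a median of 17.3 CPM in B38 and from 12.7 to 29.0 CPM with a median of 20.9 CPM in the others. Here too the 4 lowest B38 libraries, at 6.41, 8.51, 9.17 and 10.5 CPM, were the same 4. The log2 fold change was -0.41 ± 0.12 with an edgeR adjusted p of 0.0233, and it was negative within all 6 Y haplotypes.

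mRpL23, on 3L, ranged from 14.0 to 22.9 CPM with a median of 17.9 CPM in B38 and from 15.0 to 34.9 CPM with a median of 21.4 CPM in the others. The 4 libraries rich in multi-mapped reads lay between 14.6 and 17.6 CPM and were not set apart from the other B38 libraries. The log2 fold change was -0.29 ± 0.09 with an edgeR adjusted p of 0.0263, and it was negative with 5 of the 6 Y haplotypes and 0.02 with ZW139.

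**Figure D3:**
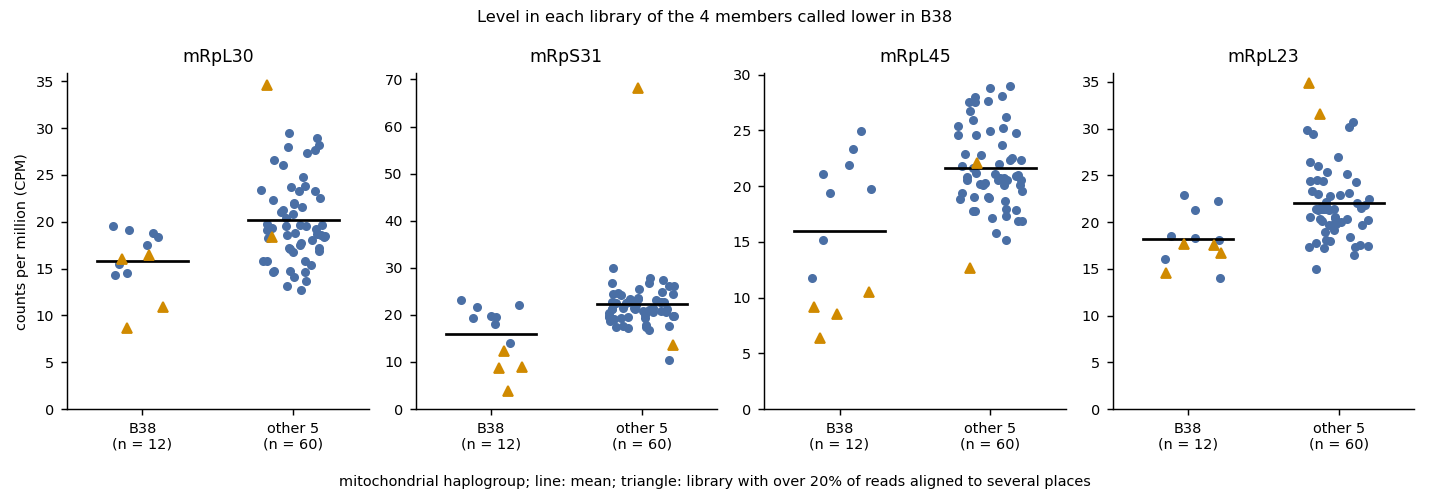
Level in CPM (vertical axes, from 0) of the 4 members called lower in B38, with the 12 B38 libraries left and the 60 libraries of the other haplogroups right, the mean as a line, and triangles for the 6 libraries with over 20% multi-mapped reads. For mRpS31 and mRpL45 the 4 triangles of B38 are its lowest libraries, whereas for mRpL23 and mRpL30 they lie partly among the others.

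These calls depended on few libraries. Without the 6 libraries that had over 20% multi-mapped reads, 0 members were called for B38, and 0.394% of all genes were. The log2 fold changes were then -0.29 for mRpL30, -0.20 for mRpS31, -0.12 for mRpL45 and -0.21 for mRpL23, with edgeR adjusted p from 0.372 to 0.681. Past the unadjusted threshold, 3 members were higher and 3 lower without the 6 libraries, each 4.23%. Among all genes 5.63% were then higher and 6.59% lower. Batch 1 alone also gave 0 calls, beside 2.36% of all genes. Leaving out any 1 of the 4 such B38 libraries also gave 0 calls, beside 1.15% to 3.95% of all genes. Leaving out replicate 2 of B38 with Y B04 gave 12 calls (16.9% of members, 17.7% of all genes), with Y B11 10 (14.1%, 19.8% of all genes), with Y N03 9 (12.7%, 14.8%) and with Y N07 7 (9.86%, 12%). There were 9 calls (12.7%, 14% of all genes) without replicate 1 of B38 with Y ZW139, and 7 (9.86%, 12.8%) without replicate 1 of I02 with Y ZH23. In each of these fits the share of members called was below that of all genes. Marker genes are given from the fit of all libraries only, which holds the 4 B38 libraries rich in multi-mapped reads. Marker lists of other tissues are not described here for B38. Of 8 neuronal genes 5 were called higher in B38, and the 8 summed to 403 to 1040 CPM there, against 289 to 739 CPM in the other haplogroups. Of 8 accessory gland genes 5 were called lower in B38, with sums of 12456 to 19975 CPM there and 11088 to 34773 CPM in the others. All 16 markers were detected and tested. The part of these tissues in the members' levels was not tested.

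In B39, I02, N01, N02 and N23, 0 members were called against the mean of the other 5 haplogroups. The background was also low, at 0.0642% of all genes for B39, 0.409% for I02, 0.0401% for N01, 0.0241% for N02 and 0.128% for N23. The unadjusted p was under 0.05 for 0 members in B39 (5.31% of all genes), 3 in I02 (11% of all genes), 2 in N01 (6.97%) and 1 each in N02 (3.01%) and N23 (4.84%). In these 5 contrasts edgeR, limma-voom and DESeq2 all called 0 members. In I02 55 of the 71 members, or 77.5%, had a log2 fold change above 0, against 51.4% of all genes, with a median of 0.05 for the members and 0.01 for all genes. The largest log2 fold change of a member with an unadjusted p under 0.05 in these haplogroups was 0.33 ± 0.15 for mRpL36 in N01.

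The second comparison asked whether members differed between the 6 Y haplotypes, averaged over the haplogroup. Again 0 of 71 members were called by the edgeR F test, beside 4.09% of all genes, and limma-voom and DESeq2 also called 0. At an unadjusted p under 0.05 there were 5 members, or 7.04%, against 19.7% of all genes. These were mRpL45, mRpL13, mRpS18A, mRpL54 and mRpS35, and mRpL47 came next, with edgeR adjusted p from 0.161 to 0.259.

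Of these, mRpL45 averaged 16.6 ± 4.11 CPM with Y B04, 22.4 ± 5.37 CPM with B11, 19.1 ± 3.47 CPM with N03, 20.6 ± 3.74 CPM with N07, 22.6 ± 3.37 CPM with ZH23 and 22.6 ± 5.31 CPM with ZW139 (SD, n = 12 each). B04 was the lowest of the 6 and differed from its neighbour N03 by less than their SD. mRpL13, a large subunit protein, was lowest with ZW139 at 10.5 ± 1.24 CPM and lay between 13.1 CPM with ZH23 and 14.7 CPM with B04 and with N07 elsewhere. In the annotation 35.2% of the exonic bases of mRpL13 lie within CG10602 on the same strand. Reads there could fit both genes and be set aside as ambiguous. mRpS18A was highest with B04 at 37.1 ± 6.03 CPM and lowest with ZH23 at 29.3 ± 5.09 CPM. mRpL54, a protein particular to mitochondrial ribosomes, was also highest with B04, at 27.6 ± 11.3 CPM, and had its lowest mean with N03, at 19.5 ± 4.95 CPM. mRpS35 ran from 26.6 ± 7.14 CPM with B04 to 19.9 ± 4.71 CPM with ZW139, and mRpL47 from 51.5 ± 19.4 CPM with B04 to 36.1 ± 9.70 CPM with ZW139.

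Of all haplotypes, Y B04 had the members' median furthest from 0 with all libraries, without a call for any of them. Against the mean of the other 5 Y haplotypes, 0 of 71 members were called by edgeR, as for 0.0561% of all genes, and limma-voom and DESeq2 called 0. Past the unadjusted threshold of 0.05, 25 members (35.2%) were higher and 4 (5.63%) lower, against 11.7% higher and 9.37% lower among all genes. Above 0 were 52 of the 71, or 73.2%, against 53.7% of all genes, and the median log2 fold change was 0.15 for the members and 0.02 for all genes. It was 0.22 for the small subunit members, 23 of 25 of which were above 0, and 0.12 for the large subunit members, 29 of 46 of which were.

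The largest positive values among members past the unadjusted threshold were 0.47 ± 0.17 for mRpL32, 0.41 ± 0.14 for mRpS10 and 0.34 ± 0.11 for mRpL54, with edgeR adjusted p of 0.144, 0.136 and 0.121. The 4 lower members were mRpL45, mRpL36, mRpL3 and mRpL10, from -0.41 to -0.24. mRpL32, mRpS10, mRpL36, mRpL3 and mRpL10 were named here after their values were seen. Without the 6 libraries rich in multi-mapped reads, of which 2 carry Y B04, 1 member was higher and 2 were lower past the unadjusted threshold, against 4.50% of all genes higher and 7.08% lower. The log2 fold changes were then 0.22 for mRpL32, 0.21 for mRpS10 and 0.18 for mRpL54, and 53 of 71 members were still above 0, against 47.9% of all genes. The summed CPM of the members was 1944 to 3678 CPM with a median of 2422 CPM in the 12 libraries with Y B04, and 1750 to 3260 CPM with a median of 2212 CPM in the other 60, so the groups overlapped widely.

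The direction for Y B04 was not shared by the haplogroups. The median log2 fold change of the members was 0.47 within N23, 0.43 within B39, 0.15 within B38, 0.11 within N01, -0.03 within I02 and -0.23 within N02. It fell to 0.09 over the whole design without the 6 libraries described above, against 0.15 with them and -0.11 for Y ZW139 without them. Within batch 1 alone it was 0.17, and within batch 2 alone, fitted without an interaction, it was -0.01. Leaving out single libraries gave medians between 0.08 and 0.20. Without replicate 2 of N23 with Y B04, which leaves a library rich in multi-mapped reads alone for its combination, 6 members were called (8.45%, against 4.31% of all genes), and without replicate 1 of B38 with Y B11, 1 was (1.41%, against 0.77%).

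For Y ZW139 the list lay on the other side. Again 0 of 71 members were called by edgeR, beside 0.104% of all genes, and by limma-voom and DESeq2. At an unadjusted p under 0.05, 11 members, or 15.5%, were lower and 0 higher, against 6.61% lower and 10.1% higher among all genes. Above 0 were 18 of 71 members, or 25.4%, against 52.7% of all genes, and the median was -0.11 for the members and 0.01 for all genes. mRpL13 had the smallest p, with a log2 fold change of -0.41 ± 0.12 and an edgeR adjusted p of 0.0915. Within haplogroups the median was negative in 5 of 6, from -0.29 in B39 to -0.05 in I02, and 0.14 in B38. In batch 1 alone it was -0.19, and in batch 2 alone 0.02. Without the 6 libraries it was -0.11, and 12 members were lower and 0 higher past the unadjusted threshold. The contrasts of B04 and ZW139 share libraries, since each is part of the mean that the other is compared with.

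In the other 4 Y contrasts 0 members were called by edgeR, limma-voom or DESeq2, beside 2.41% of all genes for B11, 0.136% for N03, 0.016% for N07 and 1.33% for ZH23. The unadjusted p was under 0.05 for 1 member with B11 (12.1% of all genes), 4 with N03 (9.95%), 0 with N07 (3.7%) and 0 with ZH23 (10.4%). Medians of the members were 0.06 for B11, -0.04 for N03, -0.03 for N07 and -0.01 for ZH23.

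**Figure D4:**
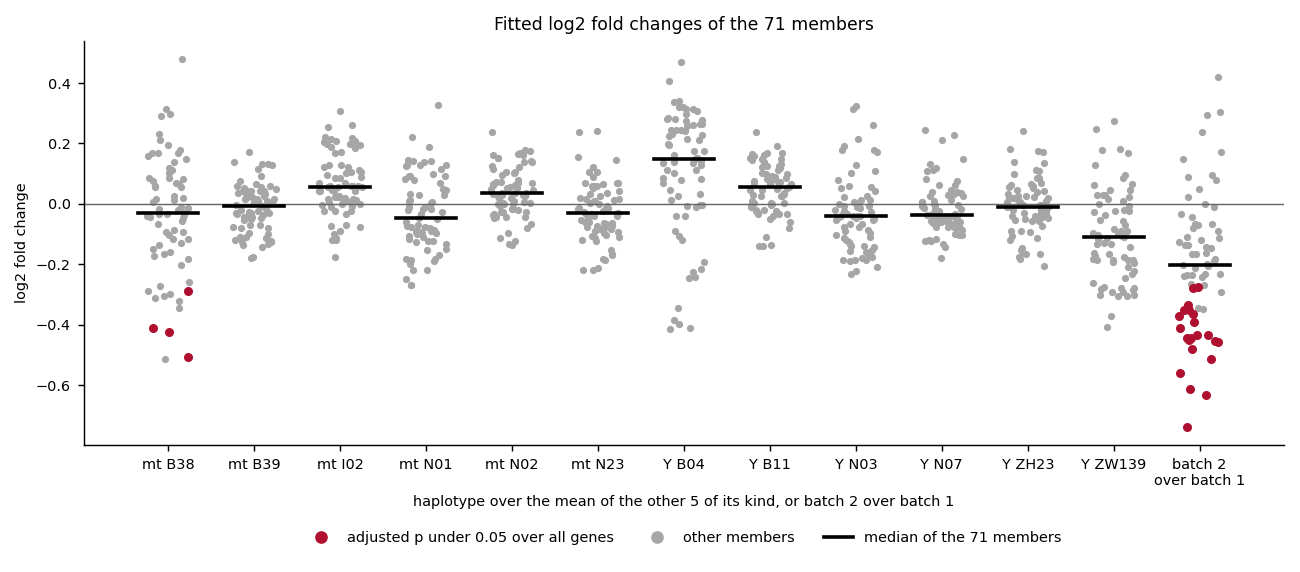
Log2 fold change (vertical axis) of each of the 71 members for the 6 haplogroups and the 6 Y haplotypes, each over the mean of the other 5 of its kind, and for batch 2 over batch 1, with the members' median as a bar and members with an adjusted p under 0.05 in red. Red points stand only under B38 (4 members) and batch (22 members), and all are below 0, while the median is highest for Y B04 at 0.15.

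The third comparison, the interaction, asked whether the effect of a haplogroup on a member depended on the Y. By edgeR's F test 0 of 71 members were called, as were 0 of all genes (0% called), and limma-voom and DESeq2 also called 0 members. At an unadjusted p under 0.05 there was 1 member, mRpL28, against 1.81% of all genes. The 6 smallest p-values were those of mRpL28, mRpS2, mRpL12, which forms the stalk that binds translation factors, mRpL54, mRpS22 and mRpL50, and their edgeR adjusted p was 1.00 for each. The value of mRpL28 contains the single library at 345.8 CPM. When replicate 2 of I02 with Y N03 was left out, so that this library stood alone for its combination, mRpL28 was called at an edgeR adjusted p of 4.81e-05.

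The labelled batch was the factor with the most calls among the members. In the shared fit 22 of 71 members (31.0%) were called and all were lower in batch 2, beside 29.1% of all genes, 14.5% lower and 14.6% higher. The share called was thus near that of all genes, and the members differed from it in direction. Of the 22, 13 were among the 46 large subunit members and 9 among the 25 small subunit members. The median log2 fold change was -0.20 for the members, -0.23 for the small and -0.18 for the large subunit, and -0.02 for all genes, and 11 of 71 members (15.5%) lay above 0, against 47.5% of all genes.

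mRpL4, which lines the peptide tunnel, had 26.1 ± 4.14 CPM in the 18 batch 2 libraries and 35.6 ± 5.88 CPM in the 18 batch 1 libraries of the same haplogroups (SD). It was lower in batch 2 in 17 of 18 combinations, and its log2 fold change was -0.44 ± 0.08 with an edgeR adjusted p of 4.45e-05. mRpS2, of the small subunit, had 17.96 ± 2.11 CPM in batch 2 and 29.3 ± 12.0 CPM in batch 1, also lower in 17 of 18, with a log2 fold change of -0.63 ± 0.13. mRpS30 had 12.3 ± 1.38 CPM in batch 2 and 19.5 ± 6.28 CPM in batch 1, and mRpL32 had 9.19 ± 1.69 CPM in batch 2 and 16.2 ± 6.72 CPM in batch 1. These 4 were named after their values were seen. The batch 1 values contain replicate 1 of N23 with Y B04, 1 of the 6 libraries rich in multi-mapped reads. Without it batch 1 averaged 34.6 ± 4.03 CPM for mRpL4, 26.9 ± 6.86 CPM for mRpS2, 18.6 ± 5.12 CPM for mRpS30 and 15.0 ± 4.67 CPM for mRpL32 (SD, n = 17), so that the SD of mRpL4 was then about equal in both batches.

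For the list, the summed CPM of the members was 1938 to 2188 CPM in batch 2 (2049 ± 73.8, n = 18) and 1842 to 3678 CPM in batch 1 of the N haplogroups (2372 ± 471, n = 18), so that batch 2 lay within the lower part of the range of batch 1. Without replicate 1 of N23 with Y B04, batch 1 averaged 2295 ± 351 CPM (n = 17). Members above their own median numbered 13 to 33 in batch 2 libraries and 7 to 66 in those batch 1 libraries, and 13 of 18 combinations had fewer in batch 2. Among the tissue markers, 4 of 8 neuronal genes and 3 of 8 flight muscle genes were called higher in batch 2, beside 14.6% of all genes. Marker lists of other tissues are not described here for batch, nor is the direction of markers that were not called. Neuronal genes summed to 518 to 739 CPM in batch 2 and 311 to 633 CPM in batch 1, and flight muscle genes to 1552 to 2741 CPM in batch 2 and 1050 to 2370 CPM in batch 1. All of these markers were detected and tested, and their part in the members' levels was not tested.

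**Figure D5:**
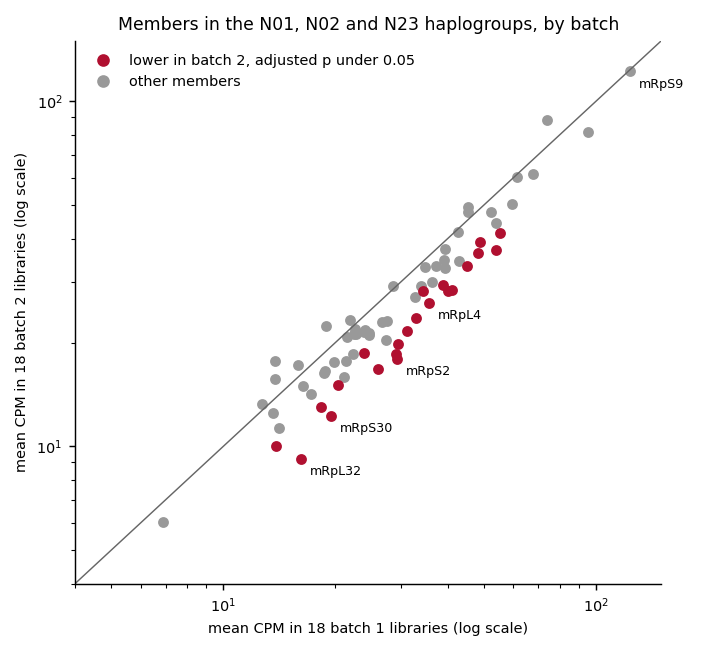
Mean CPM of each of the 71 members in the 18 batch 2 libraries (vertical axis, log scale) against the 18 batch 1 libraries (horizontal axis, log scale) of N01, N02 and N23, with equality as a line. The 22 members with an adjusted p under 0.05, in red, all lie below the line.

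Genes that work with the ribosome were counted in the same fits. tko and bonsai, ribosomal proteins under other symbols, were called in no test; with Y B04 their log2 fold changes were 0.45 ± 0.14 for tko (edgeR adjusted p of 0.120) and 0.18 ± 0.10 for bonsai (edgeR adjusted p of 0.285). Of the mitochondrial rRNAs, mt:lrRNA had an edgeR adjusted p of 0.0634 between Y haplotypes and a log2 fold change of -1.34 ± 0.42 with Y B04 at an adjusted p of 0.120, while it was called higher in batch 2 by 1.67 ± 0.47 at an adjusted p of 0.00675. mt:srRNA was called in no test. The library method primes on runs of A, so the 2 rRNAs were seen only as far as they carry such runs.

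Among all genes, 9.71% were called in B38, 2.89% lower, and 0.0561% with Y B04. For batch 29.1% of all genes were called, 14.5% lower in batch 2. The counts of the following lists are to be read beside these shares. Of 79 tested nuclear genes of oxidative phosphorylation, 3 were called in B38, 1 higher and 2 lower, and 0 with Y B04, where their median was 0.15. For batch 34 of these 79 were called, 31 of them lower in batch 2, with a median of -0.22. Of the 69 cytosolic ribosomal protein genes, 5 were called in B38, all lower, 0 with Y B04 (median 0.11), and 27 for batch, all lower in batch 2 (median -0.26). Of 8 mitochondrial translation factors 0 were called in B38 and 2 for batch, both lower in batch 2, and of 15 mitochondrial aminoacyl-tRNA synthetases 0 and 3 were. The 9 tested genes of mitochondrial transcription and RNA handling had 1 call in B38, lower, and 3 for batch, all lower in batch 2.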

How the data were processed

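Per the labels' protocols, RNA of pooled males was extracted with Trizol and made into 3′ end libraries with the Lexogen QuantSeq FWD kit. Tools listed per the submitters' processing notes are HTSeq 0.11.0, STAR 2.6, Trimmomatic 0.36, FastQC 0.11.5 and DESeq2. No genome build, annotation or strand setting of the counting is given in the sources used here. Raw counts of reads per gene were used as the authors deposited them, and the 72 columns of the table are identical to the counts in the 72 single files. Normalized values in another deposited table were left aside. Without strand, reads of the 42 members whose exons overlap a gene on the opposite strand could fit both genes. On the same strand 3 members overlap a gene. Reads set aside as ambiguous between genes were 2.39% to 3.24% per library.

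Genes were filtered with filterByExpr, which left 12470, and scaled by TMM in edgeR 4.0.16 under R 4.3.3. A quasi-likelihood model of the 36 combinations plus batch was fitted to all 72 libraries, with 35 residual degrees of freedom. F tests covered the haplogroup, the Y and the interaction, and 12 contrasts compared each haplotype with the mean of the other 5. Calls are Benjamini-Hochberg adjusted p under 0.05 over all genes tested, 2-sided. CPM use the TMM-scaled library size. Alternatives were DESeq2 1.42.0, limma-voom (limma 3.58.1), RLE scaling, no filter, no batch term, single batches, an additive model, a replicate block, leaving out the 6 libraries with over 20% multi-mapped reads, and leaving out each library in turn, with the dispersions of the whole design held. The fitting was tested on simulated data.

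The members and lists were chosen with earlier results of these data known. Named are members called in an F test or haplotype contrast, the 6 members with the smallest p in each F test, the 5 highest and 5 lowest members by mean CPM, the mRpS18 paralogs, members with under 10 counts or lost to the filter, tko, bonsai, the mitochondrial rRNAs, and up to 4 genes of each other list by smallest p in the haplogroup or Y F test, of which those called are given. Other members are said to be named after their values were seen. The 2 libraries of a combination come from separate crosses, and p-values measure the spread between such libraries. In the main fit this spread includes any difference tied to the replicate number beyond batch.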

Additional observations from a re-analysis of the deposited data

How the results depend on the processing

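The counts of members called depended on the model for a few comparisons. For B38, against 4 members, 0 were called in batch 1 alone, 0 without the 6 libraries with over 20% multi-mapped reads, 7 in the additive model (6 lower, 1 higher; 9.86%, against 12.7% of all genes), and 0 to 12 without single libraries. DESeq2 called 6 (8.45%, against 11.5% of all genes) and limma-voom 5 (7.04%, against 8.28%), including the 4. Without the filter 3 were called (4.23%, against 6.53% of all genes) and mRpL23 was lost. Without the batch term 5 were called (7.04%, against 7.31%) and mRpL30 was lost. Between haplogroups, against 0, 1 was called by DESeq2 (1.41%, against 5.23% of all genes) and 1 in the additive model (1.41%, against 4.88%). Without single libraries 0 to 2 were called (1 without replicate 2 of B38 with Y B04, 1 without replicate 2 of I02 with Y N03, 2 without replicate 2 of B38 with Y B11). Between Y haplotypes 1 was called in the additive model (1.41%, against 5.96% of all genes). Without single libraries it was 0 to 1 (1 without replicate 2 of B38 with Y B04, of I02 with Y N03 or of I02 with Y ZW139). For the interaction 0 to 1 and for Y B04 0 to 6 were called without single libraries. For Y ZW139 1 was called in the additive model (1.41%, against 1.63% of all genes). The causes were not tested, except that the batch 1 fit holds fewer libraries. No result changed sign as a call. Medians of the members' log2 fold changes moved by less than the SD between libraries of a combination under each alternative. That SD was 0.20, larger in size than any haplotype's median, so a median could change sign within it. For Y B04 the median ran from -0.01 to 0.17 over the alternatives and for Y ZW139 from -0.19 to 0.02. The count for batch was 20 to 28 under the alternatives, and without the 6 libraries it was 21 and that of every comparison of haplotypes 0. Counts without single libraries were not run for the other 10 contrasts and batch.

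The labels do not say that replicate numbers mark shared litters, batches or days outside the N haplogroups, and the pairing was judged from the data. Over the 630 pairs of combinations, differences between replicates correlated by -0.58 to 0.74 with a median of 0.10, and 49.8% were over 0.1. The median was 0.17 within combinations of batch 1 and 0.23 within those with a batch 2 library. The samples were treated as sharing only a number because not every correlation was over 0.1, a condition that any 1 low value fails. For 63 of the 72 libraries the closest library carried the same number, and 1 had its own partner as the closest. The numbers may thus mark a grouping, which in the N haplogroups cannot be told apart from batch. The main fit holds no term for the number, so its counts of calls apply to a model without such a grouping. With a replicate block 17 members (23.9%, against 26% of all genes) passed for B38 (15 lower, the 4 among them, and 2 higher), and 6 (8.45%, against 12.9%) between haplogroups. For N02 1 was called (1.41%, against 0.321%) and for Y ZW139 1 (1.41%, against 2.9%).

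The lowest counts of a member in a library were 7 for mRpL55, 9 for mRpL39 and 10 for mRpL46, so that these single values are imprecise.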

Other observations

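Among the lists of mitochondrial genes outside the ribosome, 2 genes were called between haplogroups, beside 2.01% of all genes. mt:ND3, a subunit of complex I encoded in the mitochondrial genome, had an edgeR adjusted p of 0.00232 and was called higher in N01, with a log2 fold change of 1.49 ± 0.29 (SE) and an adjusted p of 0.0234. Tom40, which forms the import pore of the outer membrane through which the ribosomal proteins pass, had an edgeR adjusted p of 0.0349 and was called lower in I02, with a log2 fold change of -0.40 ± 0.08 and an adjusted p of 0.00716.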
